A study of Mus musculus with 18 samples.

Results

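The genes of ileal bile acid transport and of the hormone Fgf15, 7 of the 47729 genes in each count table, were followed through pregnancy and pseudopregnancy in the mouse: Slc10a2, Fabp6, Slc51a, Slc51b, Nr1h4, Nr0b2 and Fgf15. They were chosen by name, as the rows whose Ensembl identifier carries one of these symbols in the GENCODE M21 annotation of the mouse build GRCm38. The rule itself uses no measured value, but the set was put together with earlier results of these data known. All 7 were found, and all 7 passed the filter on low counts that left 14675 genes for testing.

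The samples were epithelial cells, isolated by fluorescence-activated sorting from the ileum of female mice and profiled by poly(A) RNA sequencing. The 18 libraries divide by mating status into 6 virgin, 6 pregnant and 6 pseudopregnant ones, pseudopregnancy being a luteal state without embryos. All mice received RM3 chow while breeding and RM1 chow for maintenance and the experiment. The labels give no strain, age, genotype, day of pregnancy, hour of collection, feeding state or sort markers, and they do not say that replicates are separate animals, so p-values measure only the spread between these samples.

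Bile acids are made in the liver from cholesterol, secreted into the gut to help absorb fat, and reclaimed almost entirely by enterocytes of the terminal ileum. Slc10a2 (ASBT) carries them in across the brush border, Fabp6 (the ileal bile acid-binding protein) carries them through the cytosol, and the Slc51a and Slc51b subunits together form the basolateral exporter OSTα-OSTβ. Inside the cell bile acids activate the nuclear receptor FXR, the product of Nr1h4, which induces Fabp6, both exporter genes, the repressor Nr0b2 (SHP) and Fgf15, a hormone that travels to the liver and restrains bile acid synthesis there.

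FXR pairs with RXR on DNA, most often at an inverted repeat with a 1-base spacer. Of the 7 genes, 6 matched a RefSeq promoter entry (build GRCm38.p6; Fgf15 had none), and the 250 bases before each RefSeq start were compared on both strands. The longest run of letters that any 2 of the 6 shared was 11 bases, and there were 2 such runs. They are shown because they are the longest sequence that members hold in common, each as 30 bases, 5′ to 3′ on the gene's own strand, with the run in capitals. The first run, GGTGAATGACC, was shared by Fabp6 and Slc51b.
Fabp6, chr11:43601763-43601792, minus strand: gagcagagaGGTGAATGACCacactctgtg
Slc51b, chr9:65422939-65422968, minus strand: cattcgtggGGTCATTCACCctggactggc
Around its central base 4 of 5 positions of the left arm pair with the right arm, so it is an imperfect inverted repeat with a 1-base spacer. In Fabp6 it lay 221 to 211 bases before the RefSeq start, and in Slc51b, as its reverse complement, 186 to 176 bases before. The GENCODE gene model of Slc51b reaches into its window. Of 27025 promoters, 2 (0.0074%) held this run on either strand, which are these 2.
The second run, GGCAGGACTGA, was shared by Fabp6 and Nr0b2.
Fabp6, chr11:43601625-43601654, minus strand: ccctgctagGGCAGGACTGAgaagtggggt
Nr0b2, chr4:133553212-133553241, plus strand: acttccccaTCAGTCCTGCCagggtcagcg
In this run 0 of 5 arm positions pair, and 5 of the 27025 promoters (0.0185%) held it. It lay 83 to 73 bases before the start of Fabp6 and 155 to 145 before that of Nr0b2, there as its reverse complement. The 2 runs do not overlap, and each is a description of letters, not a site or a cause. Each run was chosen because 2 members share it, so at least 2 promoters had to hold it. The shares of promoters thus do not measure how particular a run is to these genes. The 250 bases of Fabp6 also hold ggtgaataacc, which differs from the first run at 1 base and likewise pairs at 4 of 5 arm positions. It was not a run shared by 2 members, so it stays in small letters. The whole 250 bases before the RefSeq start of Fabp6, the most abundant of the 7, follow with the first run in capitals.
Fabp6, chr11:43601563-43601812, minus strand: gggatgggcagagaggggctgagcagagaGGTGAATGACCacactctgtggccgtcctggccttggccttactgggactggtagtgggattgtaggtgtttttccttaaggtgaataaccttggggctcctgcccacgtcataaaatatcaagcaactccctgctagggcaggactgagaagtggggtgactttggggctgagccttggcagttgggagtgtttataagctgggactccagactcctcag

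Total counts ran from 24.9 to 37.3 M (mega) per library, with a median of 31.5 M. Levels are given as CPM, the usual read count relative to library size, with library sizes corrected by TMM, edgeR's adjustment for differences in RNA composition. Summed CPM of 7 epithelial markers ran from 11093 to 22837, against 14.25 to 44.11 for 11 leukocyte markers, 0.4802 to 1.788 for 9 markers of stroma and endothelium, and 0 to 1.452 for 5 red blood cell genes. Alas2, a red blood cell gene, was at 0 in all virgin libraries. The ileal label could be read from Fabp6, which alone took 0.184 to 1.285% of all counts in a library. Gata4, a transcription factor known for the more proximal small intestine, was also present, at 19.99 to 84.51 CPM.

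No difference between groups in any of the 7 genes passed an adjusted p of 0.05, and the groups overlapped for every gene. In edgeR's quasi-likelihood test with Benjamini-Hochberg adjustment over 14675 genes, 0 of 7 passed an adjusted p of 0.05 for pregnant against virgin, pseudopregnant against virgin or pregnant against pseudopregnant, and 0 of 7 passed an unadjusted p of 0.05. The background was the same at the adjusted threshold, with 0% of all genes called in each of the 3 comparisons. At the unadjusted threshold it was 3.68%, 9.37% and 2.35% of all genes, in that order. A test of any difference among the 3 groups called 0 of 7 as well (background 0%, and 4.56% at the unadjusted threshold), and DESeq2 called 0 of 7. Most of these genes varied widely within groups: 6 of the 7 had a biological coefficient of variation above the 24.3% median of all genes tested. Most pairs of them were also correlated from library to library. Genes outside the set were correlated with them as well, and how far differed by pair. By likeness to Fabp6 among 10505 genes, Slc51a stood at rank 18, Slc51b at rank 35 and Slc10a2 (r = 0.756) at rank 1056. By likeness to Slc10a2, Fabp6 stood at rank 61.

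Levels between genes were compared per kilobase of principal transcript. Fabp6 stood far above the rest, at 10983 ± 7172 CPM per kb (mean ± SD over 18 libraries). The exporter subunits followed at 353.2 ± 137.8 CPM per kb for Slc51b and 317.5 ± 124.4 CPM per kb for Slc51a, a difference well within their spread. Nr1h4 at 46.27 ± 8.70, Slc10a2 at 42.94 ± 19.38 and Fgf15 at 33.92 ± 22.71 CPM per kb also lay within each other's spread. Nr0b2 was lowest, at 3.58 ± 2.07 CPM per kb.

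**Figure D1:**
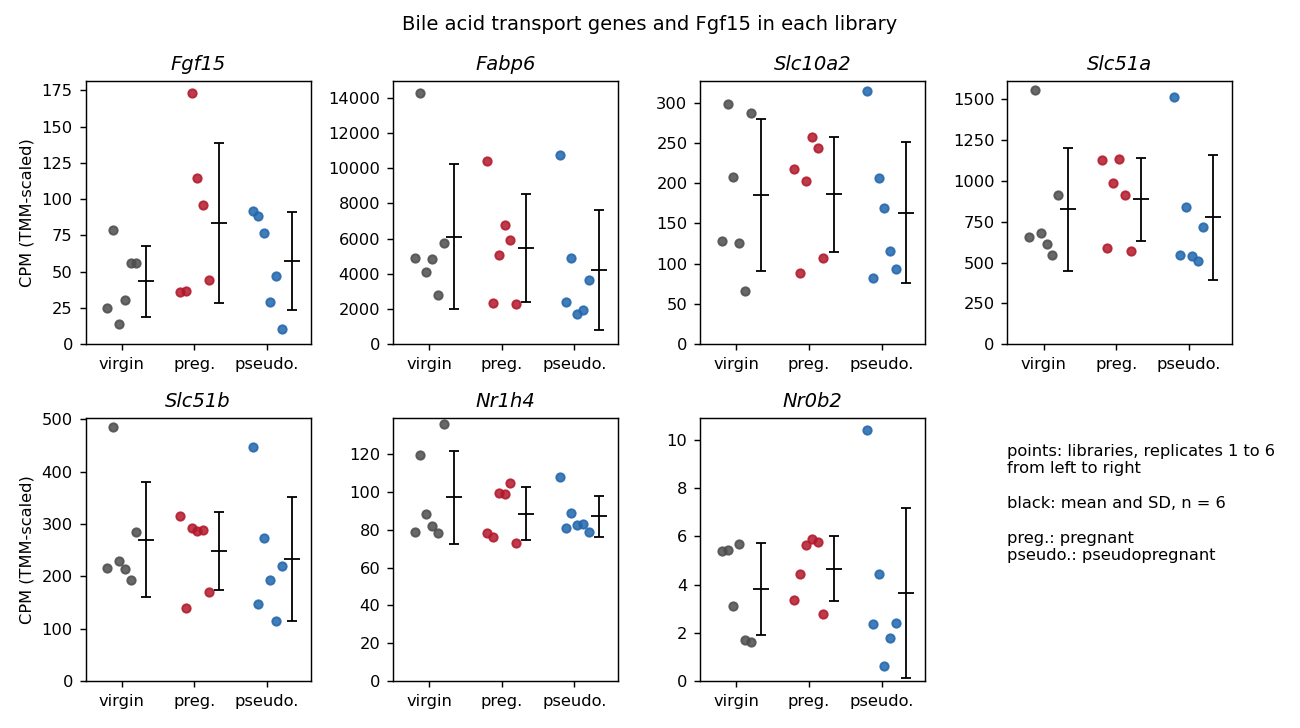
CPM of each of the 7 genes (vertical axes, linear and starting at 0, each gene on its own scale) in the 18 libraries, with the mean and SD of each group of 6 in black. The groups overlap for every gene, and virgin replicate 2 and pseudopregnant replicate 1 are the 2 highest libraries for Fabp6, Slc51a and Slc51b.

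Slc10a2, the uptake transporter (ENSMUSG00000023073, chr8:5083219-5105351, minus strand), had nearly the same mean in virgin and pregnant libraries. Its lowest, median and highest levels were 66.42, 167.3 and 297.7 CPM for virgin, 88.95, 209.8 and 257.6 CPM for pregnant, and 82.02, 142.1 and 314.3 CPM for pseudopregnant libraries. The pregnant libraries thus lay wholly inside the range of the virgin ones, and of the pseudopregnant ones only replicate 1 exceeded it. Group means were 185.3 ± 94.3, 186.1 ± 71.2 and 163.4 ± 87.6 CPM (SD, n = 6). The log2 fold change was 0.006 (SE 0.37, 95% interval -0.77 to 0.79, edgeR adjusted p 0.997) for pregnant against virgin. This interval spans folds from 0.585 to 1.73, so with 6 libraries a group the data are compatible with a moderate difference in either direction. The estimate took the other sign, -0.36, with a distal-minus-proximal score as a covariate.

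Fabp6, the cytosolic carrier (ENSMUSG00000020405, chr11:43596049-43601540, minus strand), was lowest on average in pseudopregnant libraries. Its lowest, median and highest levels were 2787, 4865 and 14268 CPM for virgin, 2274, 5510 and 10411 CPM for pregnant, and 1729, 3001 and 10740 CPM for pseudopregnant libraries. A single library stood well above the rest of its group in the virgin (replicate 2), the pregnant (replicate 1) and the pseudopregnant (replicate 1) libraries, and the remaining libraries of the 3 groups overlapped. Means were 6103 ± 4122, 5465 ± 3052 and 4215 ± 3407 CPM (SD, n = 6). The log2 fold change was -0.53 (SE 0.49, edgeR adjusted p 0.595) for pseudopregnant and -0.16 (SE 0.49, adjusted p 0.957) for pregnant against virgin. Single libraries decided these values: without pseudopregnant replicate 1 the first was -1.08 (edgeR unadjusted p 0.0297, adjusted p 0.192), and without virgin replicate 2 the second was 0.29. Over all single libraries left out, the first ran from -1.08 to -0.095 and the second from -0.446 to 0.29.

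The exporter subunits Slc51a (ENSMUSG00000035699, chr16:32474504-32487879, minus strand) and Slc51b (ENSMUSG00000053862, chr9:65412714-65422955, minus strand) had similar means in the 3 groups, and neither passed the test. For Slc51a the lowest, median and highest levels were 543.7, 671.1 and 1555 CPM for virgin, 569.1, 949.2 and 1138 CPM for pregnant, and 507.9, 632.6 and 1514 CPM for pseudopregnant libraries. For Slc51b they were 193.4, 221.9 and 484.7 CPM in virgin, 138.6, 287.4 and 316.0 CPM in pregnant, and 114.6, 206.5 and 446.5 CPM in pseudopregnant libraries. Both genes peaked in virgin replicate 2 and pseudopregnant replicate 1, both had their highest median in the pregnant group, and the groups overlapped throughout. Against virgin, the log2 fold change of Slc51a was 0.10 (SE 0.30, edgeR adjusted p 0.956) in pregnant and -0.09 (SE 0.30, adjusted p 0.892) in pseudopregnant libraries. For Slc51b the same values were -0.12 (SE 0.30, adjusted p 0.950) and -0.22 (SE 0.30, adjusted p 0.720).

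The 2 subunits were present at nearly equal levels per kilobase. The ratio of Slc51a to Slc51b, each as CPM per kb, averaged 0.819 ± 0.046 in the virgin group, 0.979 ± 0.113 in the pregnant group and 0.933 ± 0.154 in the pseudopregnant group (mean ± SD, n = 6). It ran from 0.761 to 0.870 in virgin and from 0.859 to 1.15 in pregnant libraries, so these ranges overlapped only at their edges. The ratio was singled out after its values were seen and was not tested between groups. Its log2 value had r = 0.192 and rho = 0.063 with the length slope described further on (permutation p 0.44 and 0.80, adjusted p 0.51 and 0.80 over 29 relations). Slc51a overlaps Pcyt1a on the other strand, which was at 47.33 to 191.3 CPM, and Slc51b overlaps Rasl12, at 0.2823 to 1.58 CPM. Whether the counting used strand is not stated, so reads of overlapping genes may not be told apart.

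Nr1h4, which encodes the bile acid sensor FXR (ENSMUSG00000047638, chr10:89454234-89533585, minus strand), was the steadiest of the 7. Its lowest, median and highest levels were 78.39, 85.03 and 136.1 CPM for virgin, 72.94, 88.61 and 104.5 CPM for pregnant, and 78.63, 82.85 and 108.0 CPM for pseudopregnant libraries. The medians lay close together, and virgin replicates 6 and 2 were the 2 highest libraries of all. The log2 fold change was -0.14 (SE 0.15, 95% interval -0.45 to 0.17, edgeR adjusted p 0.894) for pregnant and -0.16 (SE 0.15, 95% interval -0.47 to 0.15, adjusted p 0.597) for pseudopregnant against virgin. These intervals bound the fold between 0.734 and 1.13 for pregnant and between 0.722 and 1.11 for pseudopregnant libraries. With a distal-minus-proximal score as a covariate the 2 values were -0.27 (unadjusted p 0.0198, edgeR adjusted p 0.868) and -0.24 (unadjusted p 0.0271, adjusted p 0.500). Without virgin replicate 6 they were -0.017 and -0.041.

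Nr0b2, which encodes the repressor SHP (ENSMUSG00000037583, chr4:133553376-133556536, plus strand), was scarce, with 21 to 287 counts per library. Its lowest, median and highest levels were 1.636, 4.25 and 5.705 CPM for virgin, 2.775, 5.057 and 5.911 CPM for pregnant, and 0.6082, 2.392 and 10.42 CPM for pseudopregnant libraries. Both the lowest library (replicate 4) and the highest library (replicate 1) of all 18 were pseudopregnant, so that group enclosed the other two. The log2 fold change was 0.29 (SE 0.47, edgeR adjusted p 0.916) for pregnant against virgin and 0.36 (SE 0.47, adjusted p 0.920) for pregnant against pseudopregnant. All 6 pregnant libraries lay above the pseudopregnant median. Without pseudopregnant replicate 1 the second value was 1.03 (edgeR unadjusted p 0.0217, adjusted p 0.448). Over all single libraries left out it ran from 0.135 to 1.03.

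Fgf15, the hormone by which the ileum signals to the liver (ENSMUSG00000031073, chr7:144896531-144900953, plus strand), had the largest log2 fold change of the 7, and it too did not pass the test. Its lowest, median and highest levels were 13.69, 43.38 and 79.05 CPM for virgin, 36.04, 70.17 and 173.3 CPM for pregnant, and 10.46, 61.94 and 92.05 CPM for pseudopregnant libraries. The 3 highest libraries of all 18 were pregnant (replicates 3, 4 and 5), while the other 3 pregnant libraries lay among the virgin ones. The pregnant mean was 83.5 ± 55.0 CPM, the pseudopregnant mean 57.3 ± 33.6 CPM and the virgin mean 43.4 ± 24.4 CPM (SD, n = 6).

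For pregnant against virgin the log2 fold change of Fgf15 was 0.94 (SE 0.50, 95% interval -0.10 to 1.99), with an unadjusted p of 0.0749 and an edgeR adjusted p of 0.891. In linear terms the estimate was 1.92-fold, with an interval from 0.93 to 3.97, and 4 of 6 pregnant libraries were above the virgin median. An estimate at least this far from 0 was found for 0.647% of all genes, and Fgf15 also had a wider error than most, with an SE of 0.50 against a median of 0.202. Pseudopregnant against virgin gave 0.40 (SE 0.50, adjusted p 0.690) and pregnant against pseudopregnant 0.54 (SE 0.50, adjusted p 0.920). Leaving out single libraries moved the first from 0.20 (without pseudopregnant replicate 1) to 0.64 (without virgin replicate 2), and it was 0.10 with a villus-minus-crypt score and 0.16 with a distal-minus-proximal score as a covariate. The second moved from 0.20 (without pregnant replicate 3) to 0.74 (without pseudopregnant replicate 1). Over 30 alternative settings the pregnant against virgin estimate stayed positive, from 0.51 to 1.20, with adjusted p from 0.492 to 1. It was 0.59 without pregnant replicate 3, 0.51 with a villus-minus-crypt score and 0.58 with a distal-minus-proximal score as a covariate. Without virgin replicate 2 it was 1.20 (unadjusted p 0.0336, adjusted p 1).

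The antisense genes Gm26793 and Gm39119 overlap Fgf15 on the other strand. Gm26793 had 4 to 41 counts per library, 0.416 to 2.03% of the CPM of Fgf15. Gm39119 was at 0 in all libraries but pregnant replicate 2, where it had 1 count.

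**Figure D2:**
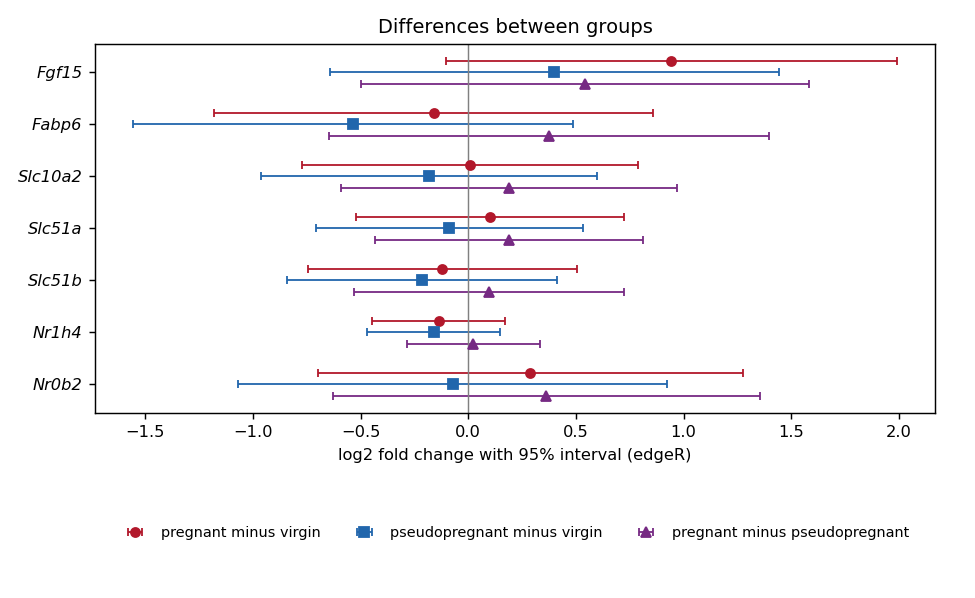
Log2 fold change (horizontal axis) of each of the 7 genes in the 3 comparisons, with the 95% interval of the edgeR fit over 18 libraries. All 21 intervals include 0; the interval of Fgf15 for pregnant minus virgin runs from -0.10 to 1.99.

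As a group, 4 of the 7 had a positive and 3 a negative fold change for pregnant against virgin, with a median of 0.006 on the log2 scale. The share of positive values over all genes was 48.5% and their median -0.008. For pseudopregnant against virgin 1 of 7 was positive (Fgf15), with a median of -0.16, beside 50.6% positive and a median of 0.004 over all genes. For pregnant against pseudopregnant 7 of 7 were positive, with a median of 0.19, beside 48.4% and -0.008. These comparisons share samples, and the members move together across libraries, so their signs are not independent of each other.

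The spread within groups was large for every member but the receptor gene Nr1h4. The biological coefficient of variation, the variation edgeR estimates beyond counting error, was 58.5% for Fgf15, 56.5% for Nr0b2, 55.8% for Fabp6 and 44.9% for Slc10a2. It was 36.5% for Slc51b, 35.9% for Slc51a and 19.3% for Nr1h4. Fgf15 exceeded 98.1% of all genes tested and 99.8% of the 500 genes nearest to it in level, whereas Nr1h4 exceeded 28.5% and 48.6%. From the lowest to the highest library Fgf15 spanned 16.6-fold, Nr0b2 17.1-fold, Fabp6 8.25-fold and Nr1h4 1.87-fold.

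**Figure D3:**
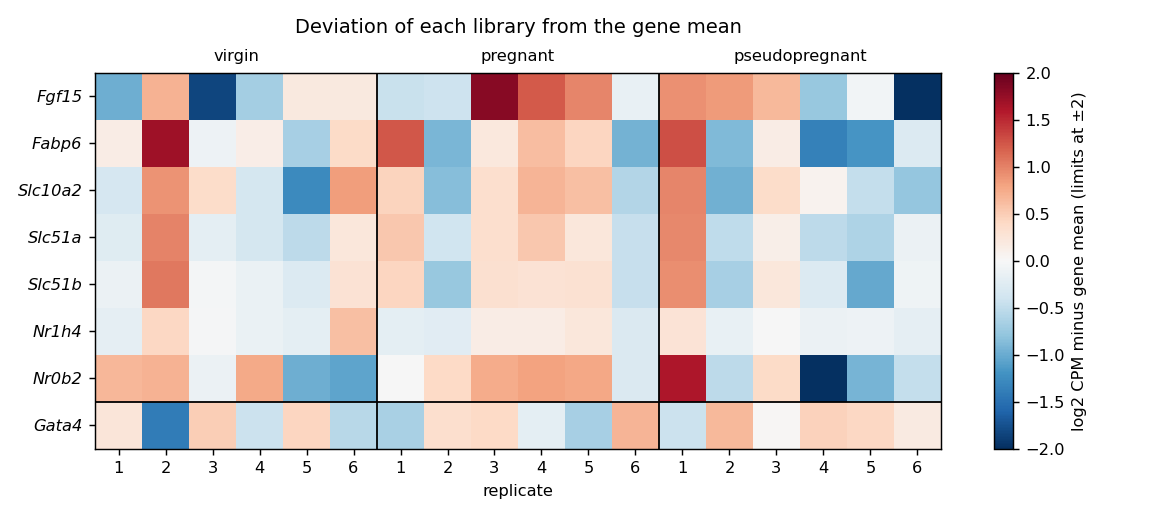
Log2 CPM of each gene minus its mean over 18 libraries (colour, clipped at ±2), by library; Gata4 is set below the line. Fabp6, Slc10a2, Slc51a and Slc51b are high together in virgin replicate 2 and pseudopregnant replicate 1, where Gata4 is low, and Fgf15 has its highest value in pregnant replicate 3.

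The carrier and both exporter subunits varied together across libraries, also within each group. Over 18 libraries, log2 CPM of Fabp6 and Slc51a correlated with Pearson r = 0.934 and Spearman rho = 0.944 (permutation p 1e-05 for both, the smallest that 100000 permutations can give, adjusted p 7e-05 and 5.2e-05 over 21 pairs). Without the 2 libraries farthest from the median of Fabp6, r was 0.916. Within the virgin, pregnant and pseudopregnant libraries alone it was 0.956, 0.958 and 0.985. Slc51a and Slc51b, which encode the subunits of 1 transporter, gave r = 0.936 and rho = 0.944 (permutation p 1e-05 for both, adjusted p 7e-05 and 5.2e-05), with r = 0.883 without the 2 farthest libraries and 0.996, 0.947 and 0.946 within groups.

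All 21 pairs among the 7 genes had a positive r, from 0.249 to 0.936, and 13 pairs by Pearson and 14 by Spearman had an adjusted permutation p under 0.05. The share of such pairs over all genes was not determined. The transporter Slc10a2 followed Slc51a (r = 0.83, rho = 0.822, permutation p 5e-05 and 8e-05, adjusted p 0.00021 and 0.00028; r = 0.817 without the 2 farthest libraries). It followed Nr1h4 nearly as closely (r = 0.795, rho = 0.789, permutation p 6e-05 and 0.00016, adjusted p 0.00021 and 0.00048), with r = 0.824 without the 2 farthest libraries. Within the virgin, pregnant and pseudopregnant groups these were 0.812, 0.94 and 0.778 for Slc51a and 0.848, 0.786 and 0.889 for Nr1h4.

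By pairs that passed, Fgf15 was the least tied to the others. The lowest r of the 21 pairs, 0.249, was nevertheless that of Nr1h4 with Nr0b2 (adjusted permutation p 0.32). Its r with the 6 other genes ran from 0.305 to 0.489, and 0 of 6 pairs by Pearson and 1 of 6 by Spearman passed the adjusted threshold. The 1 was with Nr1h4 (r = 0.489, rho = 0.55, permutation p 0.039 and 0.019, adjusted p 0.059 and 0.028), with r = 0.537 without the 2 farthest libraries. Within the virgin, pregnant and pseudopregnant groups r was 0.544, 0.899 and 0.58, but rho was 0.143, 0.6 and 0.657. Pregnant replicate 1 had the third highest Fabp6 of all, 10411 CPM, and the lowest Fgf15 of its group, 36.04 CPM. The ratio of Fgf15 to Fabp6 CPM spanned 12.8-fold over the 18 libraries, from 0.00289 (pseudopregnant replicate 6) to 0.0371 (pseudopregnant replicate 2). Whether the correlations of Fgf15 differ from those of the other members was not tested.

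The genes whose pattern over the 18 libraries was most like each member were ranked by Pearson r of log2 CPM among 10505 genes. For Fabp6 they were Ptms, Arhgap27os2, Gngt2, Myl12b and Phgr1 (r from 0.952 to 0.957), with Slc51a at rank 18 and Slc51b at rank 35. For Slc51a they were Acp5, Tm7sf2, Cltb, Ang and Myl12b (0.937 to 0.968), with Slc51b and Fabp6 next at ranks 6 and 7. For Slc51b they were Arpc1b, Cltb, Slc51a, Tm7sf2 and Myl12b (0.923 to 0.961). Myl12b, a myosin regulatory light chain gene, stood in all 3 of these sets.

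The other members had different neighbours. Those of Slc10a2 were Slc25a48, Slc17a8, Slc13a1, Tmigd1 and Suox (r from 0.889 to 0.914), of which Slc13a1 encodes a sulfate transporter and Suox sulfite oxidase. Those of Nr1h4 were Rab12, Suox, Glipr2, E2f5 and Abi3 (0.81 to 0.874), with Slc10a2 at rank 8. Those of Nr0b2 were Rogdi, Acaa1b, Rdh16f2, Tmem219 and Ifi27 (0.846 to 0.876). Those of Fgf15 were Prkacb, Acta1, Slc2a8, Cln3 and Ext2 (0.771 to 0.803), and its nearest member, Nr1h4, stood at rank 239.

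Other measures of a library moved with several of these genes: the level of Gata4, a score of position along the intestine and a slope on exon length. Gata4, whose relation to Fabp6 was singled out after its values were seen, ran opposite to Fabp6 (r = -0.852, rho = -0.812, permutation p 2e-05 and 7e-05, adjusted p 0.00058 and 0.0017 over 29 relations). Without the 2 farthest libraries r was -0.817, and within the virgin, pregnant and pseudopregnant groups it was -0.910, -0.826 and -0.942. Gata4 does not stand for proximal genes as a class. The 18 proximal enterocyte genes listed went both ways with Fabp6, with r from -0.852 (Gata4) to 0.589 (Khk). Virgin replicate 2 had both the highest Fabp6, 14268 CPM, and the lowest Gata4, 19.99 CPM.

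Both exporter subunits ran opposite to Gata4 as well. For Slc51a r was -0.779 and rho -0.738 (permutation p 0.00017 and 0.00076, adjusted p 0.0012 and 0.0053; r = -0.705 without the 2 farthest libraries). For Slc51b r was -0.773 and rho -0.719 (permutation p 8e-05 and 0.0011, adjusted p 0.00077 and 0.0054; r = -0.685 without them). Slc10a2 gave r = -0.683 and rho = -0.678 (permutation p 0.0018 and 0.0025, adjusted p 0.0066 and 0.01; r = -0.624 without them). Nr1h4 passed by Pearson only (r = -0.666, adjusted permutation p 0.0092; rho = -0.505, adjusted permutation p 0.065), and Nr0b2 and Fgf15 passed by neither (r = -0.435 and -0.245, adjusted permutation p 0.14 and 0.41). The part of Gata4, or of the cells that express it, in these levels was not tested.

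A distal-minus-proximal score, the mean deviation of 16 distal enterocyte genes minus that of 18 proximal ones (Gata4 among them, no member in either), followed Slc10a2 most closely. There r was 0.723 and rho 0.798 (permutation p 0.00052 and 0.00012, adjusted p 0.003 and 0.0017), with r = 0.790 without the 2 farthest libraries and 0.738, 0.979 and 0.665 within the virgin, pregnant and pseudopregnant groups. For Nr1h4 r was 0.704 and rho 0.775 (permutation p 0.0011 and 0.00026, adjusted p 0.0046 and 0.0025), with 0.754 without the 2 farthest libraries and 0.897, 0.834 and 0.575 within groups.

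Fgf15 also followed this score (r = 0.57, rho = 0.552, permutation p 0.013 and 0.019, adjusted p 0.031 and 0.046), with r = 0.619 without the 2 farthest libraries. Within the virgin, pregnant and pseudopregnant groups r was 0.549, 0.621 and 0.590, but rho was 0.314, 0.314 and 0.429. Slc51a gave nearly the same values (r = 0.575, rho = 0.55, adjusted permutation p 0.031 and 0.046), but its r was 0.174 within the pseudopregnant group. Slc51b passed by Spearman only (r = 0.482, rho = 0.583, adjusted permutation p 0.09 and 0.038). Fabp6 did not pass by Pearson and was at the threshold by Spearman (r = 0.404, rho = 0.54, adjusted permutation p 0.17 and 0.05). Nr0b2 passed by neither (r = 0.02, rho = 0.222, adjusted permutation p 0.94 and 0.49). The score averaged -0.138 ± 0.465 among virgin, 0.097 ± 0.322 among pregnant and 0.041 ± 0.211 among pseudopregnant libraries (SD, n = 6), differences smaller than its spread.

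The length slope of a library, the slope of gene deviations on log2 transcript length over 6364 genes, is low where short transcripts are relatively more counted. It ran opposite to Fabp6, the shortest member with an exon length of 479 bases (r = -0.817, rho = -0.721, permutation p 7e-05 and 0.00091, adjusted p 0.00077 and 0.0053). Without the 2 farthest libraries r was -0.736, and within groups -0.810, -0.632 and -0.918. For Slc51b (709 bases) r was -0.71 and rho -0.62 (permutation p 0.00096 and 0.0067, adjusted p 0.0046 and 0.022; r = -0.527 without the 2 farthest libraries). For Slc51a (3198 bases) r was -0.678 and rho -0.657 (permutation p 0.0022 and 0.0035, adjusted p 0.0072 and 0.013), with r = -0.539 without them.

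No relation of the slope with Fgf15 (exon length 3058 bases) passed the test, with r = 0.053 and rho = 0.082 (permutation p 0.83 and 0.75, adjusted p 0.86 and 0.78). It averaged -0.072 ± 0.114 among virgin, 0.001 ± 0.135 among pregnant and 0.071 ± 0.169 among pseudopregnant libraries (SD, n = 6). With this slope as a covariate, chosen after seeing the data, the pseudopregnant against virgin value of Fabp6 turned from -0.53 to 0.08. The slope's part in the shared movement of these genes was not tested.

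**Figure D4:**
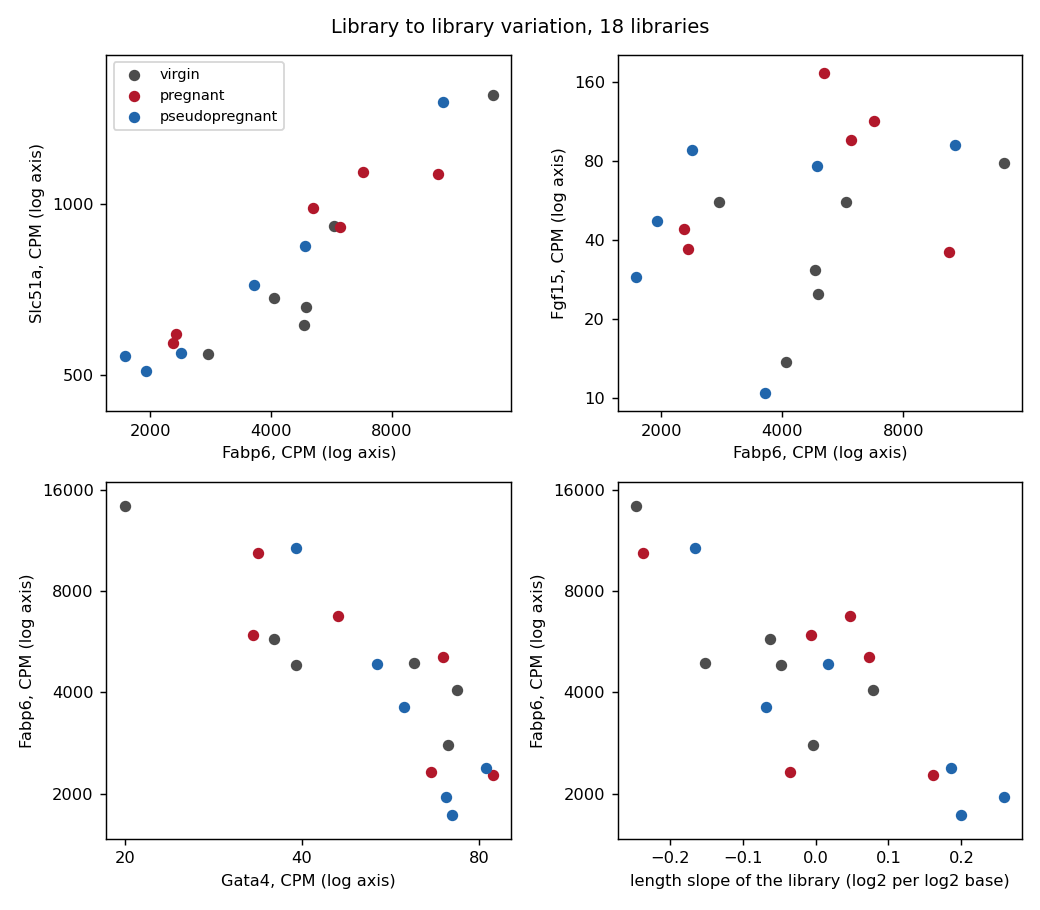
Each point is 1 of 18 libraries, coloured by group. Fabp6 and Slc51a (CPM, log axes) rise together (r = 0.934) while Fabp6 and Fgf15 scatter (r = 0.305); in the lower panels Fabp6 is lower where Gata4 (r = -0.852) or the length slope (r = -0.817) is higher.

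A villus-minus-crypt score, from 20 absorptive enterocyte genes minus 21 proliferation genes, passed the adjusted threshold with none of the 7 genes. For pregnant against virgin 20 of the 20 absorptive genes were positive (median 0.44) and 0 of the 21 proliferation genes (median -0.20), none past the test. Over all genes 48.5% were positive. It averaged -0.279 ± 0.765 among virgin, 0.310 ± 0.757 among pregnant and -0.030 ± 0.707 among pseudopregnant libraries. For Fgf15 the r was -0.848 within the virgin, 0.678 within the pregnant and 0.715 within the pseudopregnant libraries, and 0.311 over all 18 (rho = 0.30, adjusted permutation p 0.29 and 0.34). In bulk RNA, fewer cells of a type and less RNA per cell cannot be told apart.

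The wider pathway was read from lists chosen by function, with CPM as mean ± SD (n = 6) and, in parentheses, the log2 fold change with its SE; counts of genes that passed are those of edgeR at an adjusted p of 0.05. Of 26 bile acid sensors and regulators 24 were tested (Rxrg and Gpbar1 fell below the filter) and 0 passed in any comparison. For pregnant against virgin 21 of the 24 had a positive fold change, with a median of 0.15, beside 48.5% of all genes. Counts of signs in this and the following lists were not tested, and genes of a list may move together. Malrd1, whose product promotes Fgf15 output from enterocytes, averaged 174.9 ± 52.4 CPM over pregnant and 129.1 ± 38.5 CPM over virgin libraries (a log2 difference of 0.44, SE 0.22, edgeR adjusted p 0.891). Klb, the co-receptor of Fgf15 in the liver, was nearly absent, with means of 0.604 ± 0.521 CPM over pseudopregnant and 0.235 ± 0.093 CPM over virgin libraries. Esr1, Ppara, Ncoa1 and Mafg were also among the genes of smallest p in this list, with edgeR adjusted p from 0.515 to 0.920.

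Of 18 other transporters of bile acids, organic anions or ions 14 were tested, and 0 passed. For pseudopregnant against virgin 12 of 14 were positive, with a median of 0.29, beside 50.6% of all genes. Slc10a5, a relative of Slc10a2, averaged 21.31 ± 13.18 CPM over pseudopregnant and 9.88 ± 5.41 CPM over virgin libraries (a log2 difference of 1.11, SE 0.45, edgeR adjusted p 0.515). Abcc2, an apical export pump for organic anions, was at 117.5 ± 36.8 and 75.4 ± 32.3 CPM (0.64, SE 0.32, adjusted p 0.515). For pregnant against virgin the smallest p were those of Slco2a1, a prostaglandin transporter (0.57, SE 0.25), and of the P-glycoprotein genes Abcb1b (0.67, SE 0.31) and Abcb1a (0.51, SE 0.25), all with an edgeR adjusted p of 0.891. The hepatic bile acid transporters Abcb11 and Slc10a1 fell below the filter, as did Slco1a4 and Slco1a6.

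Of 25 genes of bile acid metabolism 18 were tested and 0 passed. The genes of hepatic synthesis Cyp7a1, Cyp8b1, Cyp7b1, Slc27a5 and Akr1d1 fell below the filter, with Cyp3a41a and Sult2a1. Cyp3a44, a cytochrome P450, had the smallest p for pregnant against virgin, at 5.868 ± 3.919 and 1.501 ± 0.9032 CPM (log2 fold change 1.98, SE 0.46, edgeR adjusted p 0.891; DESeq2 adjusted p 0.0376). Baat, which conjugates bile acids to taurine and glycine, was at 7.28 ± 1.67 CPM in pregnant and 4.76 ± 2.32 CPM in pseudopregnant libraries (0.62, SE 0.28, edgeR adjusted p 0.920). Akr1b7, another FXR target, averaged 83.6 ± 35.5 CPM over pregnant and 57.9 ± 11.9 CPM over virgin libraries (0.53, SE 0.31, adjusted p 0.891).

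Of 12 other intestinal FXR targets 11 were tested and 0 passed. For pregnant against virgin 8 of 11 were positive with a median of 0.17, beside 48.5% of all genes. For pseudopregnant against virgin 5 of 11 were positive with a median of -0.006, beside 50.6% of all genes. Car12, a carbonic anhydrase, averaged 29.2 ± 11.1 CPM over pregnant and 22.2 ± 6.4 CPM over virgin libraries (0.40, SE 0.23, edgeR adjusted p 0.891). Il18, which encodes a cytokine of the epithelium, was at 33.6 ± 6.7 CPM in pregnant and 47.8 ± 17.1 CPM in pseudopregnant libraries (-0.51, SE 0.23, adjusted p 0.920).

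Among the 16 distal enterocyte genes 0 passed, and 16 of 16 were positive for pregnant against virgin, with a median of 0.31. The share over all genes was 48.5%, and the 20 absorptive enterocyte genes were all positive too (median 0.44), so this direction was not particular to distal genes. Cubn, the ileal receptor for vitamin B12 bound to intrinsic factor, averaged 568.5 ± 286.8 CPM over pregnant and 251.9 ± 110.0 CPM over virgin libraries (a log2 difference of 1.17, SE 0.38, edgeR adjusted p 0.891). Xpnpep2, a brush border peptidase, was at 606.4 ± 199.5 and 396.3 ± 78.7 CPM (0.61, SE 0.20, adjusted p 0.891). Of the 18 proximal genes 12 were positive with a median of 0.11 and 0 passed, with Slc40a1, the iron exporter, at 40.3 ± 21.9 and 22.1 ± 9.9 CPM (0.87, SE 0.36, adjusted p 0.891).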

How the data were processed

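Poly(A) RNA of sorted ileal epithelium was sequenced in 18 libraries. The deposited tables hold raw read counts by Ensembl gene, with 1 file for each library. Tools named in the submitters' processing notes are HISAT2 2.0.4 for the build GRCm38, featureCounts of Subread 2.0.0, FastQC 0.11.5 and DESeq2 1.24.0. The strand setting was not given in the sources used here, nor was the annotation release. GENCODE M21 gave symbols for 47310 of 47729 genes. Total counts were 24.9 to 37.3 M per library, and replicates differed beyond sampling noise.

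Genes were filtered with filterByExpr and scaled by TMM. All 18 libraries entered 1 quasi-likelihood model with a mean per group (edgeR 4.0.16 with legacy = FALSE, in R 4.3.3). Contrasts were two-sided and Benjamini-Hochberg adjusted over 14675 genes, with a threshold of 0.05. Correlations used log2 CPM (prior count 2) and 100000 two-sided permutations, adjusted within each family. A score is the mean deviation of log2 CPM over a list. The length slope used genes with a mean CPM of at least 20. The fit was tested on simulated data.

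The rule for named genes gave the 3 genes of smallest p in each comparison for each list, of which a selection is printed. For each of the 7 genes it gave the 5 most similar genes among those with a mean CPM of at least 2 and no predicted-gene symbol. The 7 genes, the lists and the tests were chosen with earlier results of these data known. Alternatives were scaling by upper quartile or DESeq2's size factors, a CPM minimum of 1 in 6 libraries or no filter, other tools (limma-voom, limma 3.58.1, and DESeq2 1.42.0), a robust fit, only the groups compared, the replicate number as a block, either score as a covariate, and each library left out. Promoter sequences are from RefSeq, build GRCm38.p6.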

Additional observations from a re-analysis of the deposited data

Results flagged for a closer look

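In 6 cases a value stood apart from the other libraries of their group by Dixon's test at 95%, among 21 gene and group combinations. Chance gives about 1 in 20 for normally distributed values. The test was made on linear CPM, which are skewed upward, so that rate may not hold here. The same test on log2 CPM was not made, and on that scale these values may not stand apart. Virgin replicate 2 stood apart with 14268 CPM for Fabp6, 1555 CPM for Slc51a and 484.7 CPM for Slc51b. Pseudopregnant replicate 1 stood apart with 10740 CPM for Fabp6, 1514 CPM for Slc51a and 108 CPM for Nr1h4. The 6 values thus came from 2 libraries, and the genes are correlated, so they do not count as 6 separate cases. In virgin replicate 2 the length slope was -0.246, the lowest of 18, and Gata4 19.99 CPM, the lowest of 18. In pseudopregnant replicate 1 the length slope was -0.165 and Gata4 39.07 CPM, the lowest of its group. The part of these measures in the high values was not tested.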

How the results depend on the processing

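Over 30 alternatives 0 of 630 fold changes of the 7 genes passed the threshold, 587 kept their sign and 43 took the other, and 9 of 21 results had 1 sign throughout. Genes called for pregnant against virgin were 0 with edgeR (540 at an unadjusted p under 0.05), but 5 with DESeq2 (Slc31a1, Gm42427, Cyp3a44, Bco1 and Mbl2, named after their values were seen), and 1 without pseudopregnant replicate 1 (Gm42427; 0 to 1 over single libraries left out). For any difference among the groups they were 0, and 1 with DESeq2 (Gm42427). With the replicate number as a block 1 gene was called for pregnant against virgin (Gm42427), 0 members were called, and Slc10a2 was -0.042. It raised the genes at an unadjusted p under 0.05 from 540 to 979 for pregnant against virgin, from 1375 to 1988 for pseudopregnant against virgin and from 345 to 618 for pregnant against pseudopregnant. Same-numbered libraries correlated from -0.483 to 0.662, over 0.1 in 10 of 18 pairs, and the labels name nothing shared by a number, so the numbers were not taken as pairs. As a hint from the data, 6 of 18 pairs had their own number as best match, replicate 3 in 3 of 3 comparisons and replicate 5 in 2 of 3.

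For pregnant against virgin, Slc10a2 was -0.026 with upper quartile scaling. With the villus-minus-crypt score Slc10a2 was -0.174, Slc51a -0.025 and Nr0b2 -0.007. With the distal-minus-proximal score Slc10a2 was -0.363, Slc51a -0.112 and Nr1h4 -0.265 (-0.245 for pseudopregnant against virgin, and -0.02 for pregnant against pseudopregnant). With the length slope, added after seeing the data, Fabp6 was 0.276 and Slc51b 0.141 for pregnant against virgin, and Nr1h4 -0.006 for pregnant against pseudopregnant. For pseudopregnant against virgin it gave 0.08 for Fabp6, 0.078 for Slc10a2, 0.282 for Slc51a, 0.133 for Slc51b and 0.293 for Nr0b2.

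Leaving out single libraries gave these ranges for pregnant against virgin: Slc10a2 from -0.168 to 0.197, Fabp6 from -0.446 to 0.29 and Slc51b from -0.199 to 0.131. For pseudopregnant against virgin they were -0.4 to 0.179 for Slc51a, -0.518 to 0.022 for Slc51b and -0.743 to 0.154 for Nr0b2. For pregnant against pseudopregnant they were -0.029 to 0.108 for Nr1h4 and -0.043 to 0.399 for Slc51b. The cause of these changes was not tested. With 6 libraries a group and this spread, the data cannot decide between the differences inside each 95% interval given.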
